A study of Mus musculus with 40 samples.

Results

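Trav7-2, Trav7-3 and Trav7-4 are variable segments of the mouse T cell receptor alpha locus (Tcra), and 4 further copies of them, Trav7d-2, Trav7d-3, Trav7d-4 and Trav7n-4, are named after the duplicated stretches of the array in which they lie. These 7 segments were chosen by name, out of 106 Trav segments and 13 Trav7 segments counted in the Tcra tables, and Trav7-1, Trav7-5 and Trav7-6 were not included. They were counted in thymus libraries of EACBE-/- mice, which lack the CTCF binding site at the Tcra enhancer Ea, and of EACBE+/+ mice, which keep it. All mice were C57BL/6 and 4 to 8 weeks old, and each genotype had 2 libraries. The series asks what that binding site does in Tcra rearrangement. Thymocyte RNA was reverse transcribed with a template-switching adapter (5′ RACE), so that receptor transcripts could be amplified without a primer for each V segment. The labels do not say that the 2 libraries of a genotype came from separate mice, so the p-values below measure only the spread between these libraries.

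In developing thymocytes that carry both CD4 and CD8, recombination joins 1 Trav segment to 1 Traj segment, and the enhancer Ea, which lies beyond the Traj array, drives this step. A cell can recombine the same allele again, and each further round replaces the earlier join with a Trav segment lying farther from the Traj array and a Traj segment lying farther to the 3′ side. Traj segments are numbered downward from the 5′ to the 3′ end of their array, so low-numbered Traj segments are used mostly in later rounds. A Trav segment encodes most of the variable domain of the alpha chain, with all of its antigen-contacting loops but the one formed at the join. CTCF is a DNA-binding protein at which chromatin loops are anchored.

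On chromosome 14 of GRCm38.p6 (RefSeq), the D copies lie farthest from the Traj array, with Trav7d-2 at 52683964 to 52684472, Trav7d-3 at 52744314 to 52744838 and Trav7d-4 at 52769863 to 52770392. Trav7n-4 follows at 53091346 to 53091875. The segments with no letter, called original copies here, lie nearest to the Traj array, with Trav7-2 at 53390633 to 53391136, Trav7-3 at 53443314 to 53443839 and Trav7-4 at 53461209 to 53461738. The distance to Traj61 is 1471 kb for Trav7d-2 and 693 kb for Trav7-4, and each annotated gene spans 504 to 530 bases.

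The Tcra tables held 19085 and 163953 counts in EACBE-/- replicates 1 and 2, and 10694 and 172388 counts in EACBE+/+ replicates 1 and 2. Replicate 2 was thus far deeper than replicate 1 in both genotypes. The 7 segments together had 1313 and 10112 counts in EACBE-/- libraries, against 970 and 14082 in EACBE+/+ libraries, and all 7 passed the filter on low counts. The tables list receptor segments and no other gene, so they hold no value that checks the genotype or the cell type. With bulk RNA, fewer cells with a segment and less receptor RNA per cell cannot be told apart. The sources used here do not say how near-identical copies were told apart in the authors' counting, so the values of single copies are uncertain and are given with the sums over copies.

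The family as a whole took a smaller share of the EACBE-/- repertoire. It made up 6.88% and 6.17% of all counts in EACBE-/- replicates 1 and 2, against 9.07% and 8.17% in EACBE+/+ replicates 1 and 2. Both EACBE-/- libraries lay below both EACBE+/+ libraries, and the means were 6.52% ± 0.504 and 8.62% ± 0.638 (SD, n = 2 each). The smallest p that a two-sided exact permutation test allows with 2 libraries against 2 is 0.333, which was obtained here, so differences in summed shares are described by their sizes and by whether libraries overlap. The difference was carried by the segments numbered 2 and 3 and not by those numbered 4.

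Trav7-2 fell 3.08-fold. It held 0.697% and 0.643% of counts in EACBE-/- replicates 1 and 2 (133 of 19085 and 1054 of 163953), against 2.12% and 2.01% in EACBE+/+ replicates 1 and 2 (227 of 10694 and 3463 of 172388). The 2 genotypes were far apart relative to the spread within each, with means of 0.670% ± 0.0382 and 2.07% ± 0.0805 (SD, n = 2 each). Among the 106 Trav segments it ranked 49th by mean share in EACBE-/- and 12th in EACBE+/+. Its log2 change was -1.63 (SE 0.299, adjusted p = 0.0258 in edgeR's quasi-likelihood test with Benjamini-Hochberg adjustment over all 106 segments). It was the 1 member called out of 7, where 6 of all 106 segments were called, a percentage of 5.66. The size held when any library was left out, at -1.68 to -1.57, but the call was lost without EACBE-/- replicate 1 (adjusted p = 0.0813) and without EACBE-/- replicate 2 (adjusted p = 0.150).

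Trav7-3, the next member toward the Traj array, had a difference of about the same size that did not pass the threshold. It held 0.445% and 0.237% in EACBE-/- replicates 1 and 2, against 1.20% and 0.967% in EACBE+/+ replicates 1 and 2, and the libraries of the genotypes did not overlap. The log2 change was -1.68 (SE 0.431, edgeR adjusted p = 0.0892), and the adjusted p lay between 0.0261 and 0.392 when 1 library was left out. It passed without EACBE+/+ replicate 2 (adjusted p = 0.0261) and in DESeq2 (adjusted p = 0.0333). Its rank by mean share was 71 in EACBE-/- and 33 in EACBE+/+.

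Trav7-4, the member nearest to the Traj array, had the highest mean share in both genotypes, although Trav7d-4 was higher in EACBE-/- replicate 1 (2.52%). Trav7-4 held 2.09% and 2.86% in EACBE-/- replicates 1 and 2, against 2.62% and 3.13% in EACBE+/+ replicates 1 and 2. These ranges overlapped, and the log2 change was -0.22 (SE 0.312, edgeR adjusted p = 0.758). Its N copy, Trav7n-4, held 0.377% and 0.504% in EACBE-/-, against 0.430% and 0.757% in EACBE+/+, with a log2 change of -0.44 (SE 0.436, edgeR adjusted p = 0.646). These libraries overlapped as well.

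Among the D copies, Trav7d-4 was the only one of the 7 segments with a positive log2 change. It held 2.52% and 1.41% in EACBE-/- replicates 1 and 2, against 1.58% and 0.755% in EACBE+/+ replicates 1 and 2, and replicate 1 was the higher library in both genotypes. The genotypes overlapped, and the log2 change of 0.76 (SE 0.464) did not pass (edgeR adjusted p = 0.437). Leaving out 1 library moved it between 0.28 and 1.37. Trav7d-3 held 0.660% and 0.488% in EACBE-/-, against 0.888% and 0.485% in EACBE+/+ (log2 change -0.25, SE 0.432, edgeR adjusted p = 0.813). Trav7d-2, the rarest member, had 18 and 55 counts (0.0943% and 0.0335%) in EACBE-/-, against 25 and 121 counts (0.234% and 0.0702%) in EACBE+/+ (log2 change -1.25, SE 1.31, edgeR adjusted p = 0.656). Its large error goes with these few counts, and leaving out 1 library moved the change between -2.11 (without EACBE-/- replicate 1) and -0.19 (without EACBE+/+ replicate 1).

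**Figure D1:**
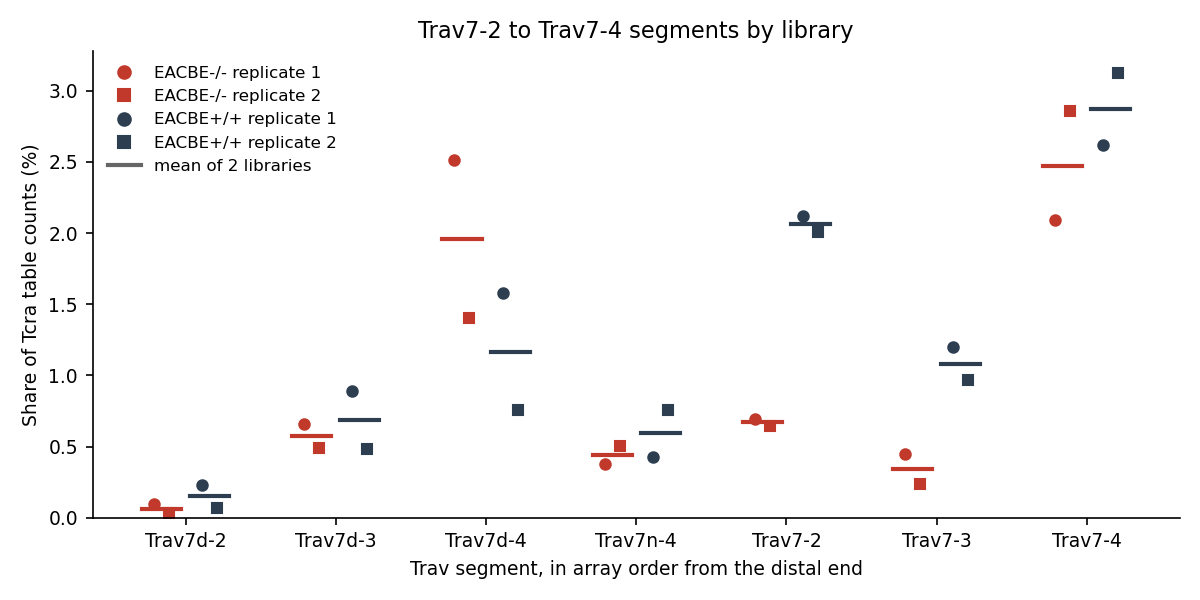
Share of all Tcra counts (percent, vertical axis) held by each of the 7 segments (horizontal axis, in array order), with EACBE-/- libraries in red on the left and EACBE+/+ libraries in dark blue on the right of each pair; circles are replicate 1, squares are replicate 2 and lines are means of 2 libraries. Trav7-2 and Trav7-3 have both EACBE-/- libraries below both EACBE+/+ libraries, and the other 5 segments overlap.

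In the plot of shares by library, 2 of the 7 segments had both EACBE-/- libraries below both EACBE+/+ libraries, where 24.5% of all Trav segments did. The opposite order was seen in 0 of the 7, where 25.5% of all Trav segments had it. The log2 change was negative for 6 of the 7, with a median of -0.44, and for 57 of all 106 Trav segments, with a median of -0.13. In EACBE-/- libraries the mean shares ran, from high to low, Trav7-4, Trav7d-4, Trav7-2, Trav7d-3, Trav7n-4, Trav7-3 and Trav7d-2. Neighbours in that order overlapped, except Trav7d-4 against Trav7-2 and Trav7-3 against Trav7d-2. In EACBE+/+ libraries the order was Trav7-4, Trav7-2, Trav7d-4, Trav7-3, Trav7d-3, Trav7n-4 and Trav7d-2, and the overlapping neighbours were Trav7d-4 with Trav7-3 and Trav7d-3 with Trav7n-4.

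Summing the copies of each number removes the question of how counts were divided among those copies, but not between numbers. The 2 segments numbered 2 together held 0.791% and 0.676% in EACBE-/- replicates 1 and 2, against 2.36% and 2.08% in EACBE+/+ replicates 1 and 2. Their log2 change was -1.60 (SE 0.167, edgeR adjusted p = 0.00674, over 47 Trav numbers with copies summed), and with copies summed 25.5% of all Trav numbers were called. The 2 segments numbered 3 held 1.11% and 0.725% in EACBE-/-, against 2.09% and 1.45% in EACBE+/+, with a log2 change of -0.95 that did not pass (SE 0.299, edgeR adjusted p = 0.0825). The 3 segments numbered 4 held 4.98% and 4.77% in EACBE-/-, against 4.63% and 4.64% in EACBE+/+, with a log2 change of 0.07 (SE 0.163, edgeR adjusted p = 0.754). The number 4 segments thus made up most of the family's counts in all 4 libraries, and the difference in their mean share of all counts was 0.242 percentage points. Trav7-2 alone made up 10.1% and 10.4% of the family's counts in EACBE-/-, against 23.4% and 24.6% in EACBE+/+, and Trav7d-4 made up 36.6% and 22.8% in EACBE-/-, against 17.4% and 9.25% in EACBE+/+.

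Sorted by copy instead, the 3 original copies together held 3.23% and 3.74% in EACBE-/- replicates 1 and 2, against 5.94% and 6.10% in EACBE+/+ replicates 1 and 2, with no overlap. The 3 D copies held 3.27% and 1.93% in EACBE-/-, against 2.70% and 1.31% in EACBE+/+, and overlapped. The D copies were 50.3% and 34.0% of the D and original counts of the family in EACBE-/-, against 31.3% and 17.7% in EACBE+/+. The log2 ratio of D to original counts was 0.02 and -0.96 in EACBE-/-, against -1.14 and -2.22 in EACBE+/+, a difference of 1.21 with no overlap between genotypes. This ratio also differed by about as much between replicates 1 and 2 of a genotype, replicate 1 being higher in both, and the part of depth in it was not tested. By number, the log2 ratio of Trav7d-3 to Trav7-3 was 0.57 and 1.04 in EACBE-/-, against -0.43 and -0.996 in EACBE+/+, without overlap. For Trav7d-4 over Trav7-4 it was 0.27 and -1.02 in EACBE-/-, against -0.73 and -2.05 in EACBE+/+, and for Trav7d-2 over Trav7-2 it was -2.89 and -4.26 in EACBE-/-, against -3.18 and -4.84 in EACBE+/+, and both overlapped. Over the 29 other Trav numbers with a D and an original copy, the ratio lay higher in both EACBE-/- libraries for 6, a percentage of 20.7. Summed over those 29, it was -0.41 and -0.94 in EACBE-/-, against -0.41 and -0.66 in EACBE+/+, with overlap. In 2 of the 3 comparison groups the ratio lay higher in both EACBE-/- libraries, as in the family. For Trav6-3 to Trav6-5 it was -0.33 and -0.51 in EACBE-/-, against -1.19 and -1.36 in EACBE+/+. In the group of Trav7-5 and Trav7-6, only Trav7-5 has both a D and an original copy listed. Its ratio, Trav7d-5 over Trav7-5, was 0.43 and -0.20 in EACBE-/-, against -0.30 and -0.47 in EACBE+/+. In the group of Trav9-2 to Trav9-4, only Trav9-2 and Trav9-4 have both copies listed. Their summed ratio was -3.25 and -0.48 in EACBE-/-, against -2.97 and 0.24 in EACBE+/+, with overlap.

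**Figure D2:**
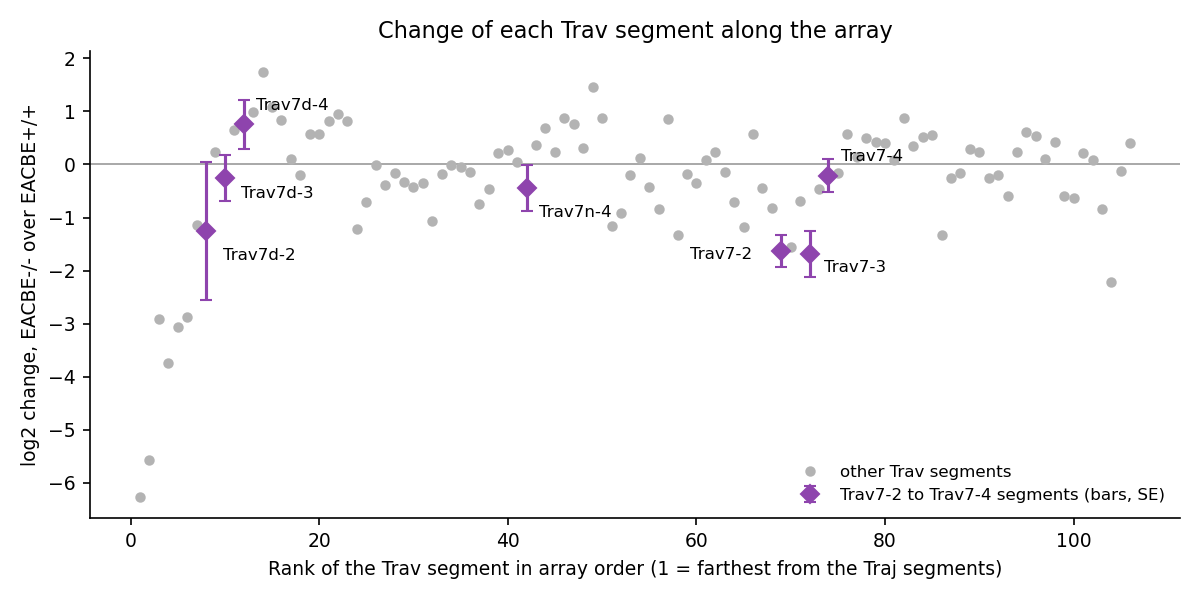
Log2 change of each of the 106 Trav segments (vertical axis, EACBE-/- over EACBE+/+) against its rank in array order (horizontal axis, 1 lies farthest from the Traj segments); grey points are other segments, and purple diamonds with SE bars are the 7 segments of the family. Trav7-2 and Trav7-3 sit at -1.63 and -1.68, Trav7d-4 sits at 0.76, and the segments at the far left end, before Trav7d-2, reach -6.26.

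Along the array, Trav7d-2 ranks 8th from the end far from the Traj segments. It lies just past a run of segments with low EACBE-/- counts that reaches from Trav1 (log2 change -6.26) to Trav6-2 (-1.15). The listed neighbours of Trav7d-4 had positive changes, 0.64 for Trav6d-4 and 0.98 for Trav8d-1, and those of Trav7-2 had negative ones, -0.82 for Trav14n-3 and -1.55 for Trav4-2. Trav6-3 and Trav6-4, on either side of Trav7-3, had -0.70 and -0.46, and Trav8-1, beside Trav7-4 on its Traj side, had -0.16. In edgeR the adjusted p of these neighbours of Trav7d-4, Trav7-2, Trav7-3 and Trav7-4 ran from 0.251 to 0.813, all above the threshold. Other members differed in sign from their neighbours. Trav7d-3 (-0.25) lies between Trav6d-3 (0.24) and Trav6d-4 (0.64), and Trav7n-4 (-0.44) between Trav14d-3-dv8 (0.04) and Trav6n-5 (0.38). Trav7d-2 (-1.25) has Trav6-2 on its far side and Trav6d-3 (0.24) on its Traj side. Other groups with D and N copies gave shares on either side. Trav7-5 and Trav7-6 with their copies held 5.47% and 5.29% in EACBE-/-, against 4.68% and 4.18% in EACBE+/+, and Trav6-3 to Trav6-5 with their copies held 2.10% and 3.54%, against 1.72% and 3.03%. Trav9-2 to Trav9-4 with their copies held 2.58% and 2.82% in EACBE-/-, against 2.80% and 3.79% in EACBE+/+.

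The Traj partners of the family lay farther to the 3′ side than those of the pooled counts of all other Trav in every library. The 43 listed Traj segments were taken in 3 regions, 13 in the 5′ region (Traj61 to Traj42), 16 in the middle (Traj41 to Traj22) and 14 in the 3′ region (Traj21 to Traj1). The 5′ region received 19.0% and 17.5% of family counts in EACBE-/- replicates 1 and 2, and 14.9% and 16.4% in EACBE+/+ replicates 1 and 2. All other Trav together gave it 37.2% and 39.0% in EACBE-/-, and 30.8% and 31.9% in EACBE+/+. The log2 odds of a 5′ join, family over other Trav, were thus -1.33 and -1.59 in EACBE-/- and -1.34 and -1.25 in EACBE+/+. Over Trav7-5 and Trav7-6 with copies they were -1.32 and -1.37 in EACBE-/- and -1.43 and -1.05 in EACBE+/+. The gap was smaller over Trav9-2 to Trav9-4 with copies, at -0.61 and -0.94 in EACBE-/- and -0.57 and -0.69 in EACBE+/+. It was also smaller over Trav6-3 to Trav6-5 with copies, at -0.44 and -0.90 in EACBE-/- and -0.42 and -0.73 in EACBE+/+. With 4 libraries on 1 side an exact two-sided sign test gives p = 0.125, the smallest it can give. Counting the 43 listed Traj segments from 1 at Traj58 to 43 at Traj2, the mean rank of the family's partner was 22.1 and 22.8 in EACBE-/-, and 24.2 and 25.3 in EACBE+/+. That of other Trav was 18.1 and 18.0 in EACBE-/-, and 20.5 and 21.3 in EACBE+/+.

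In EACBE-/- libraries a smaller share of the family's own counts were 3′ joins and a larger share were middle joins. The 3′ region received 21.1% and 24.9% of family counts in EACBE-/- replicates 1 and 2, against 30.9% and 38.1% in EACBE+/+ replicates 1 and 2. The middle region received 59.9% and 57.6% in EACBE-/-, against 54.1% and 45.5% in EACBE+/+. Neither pair of ranges overlapped, and the differences of the means were -11.6 and 8.96 percentage points. The 5′ difference was 2.59 points and turned to -0.70 when the region was narrowed to Traj61 to Traj47. Other Trav had 3′ joins in 14.1% and 16.6% of counts in EACBE-/-, against 23.3% and 29.5% in EACBE+/+. Their 3′ and middle differences of means were -11.0 and 4.24 points. They were -11.3 and 5.59 for Trav7-5 and Trav7-6, -12.5 and 7.21 for Trav9-2 to Trav9-4, and -10.8 and 6.30 for Trav6-3 to Trav6-5, all with copies. None of the 3′ ranges overlapped. The middle ranges overlapped for other Trav and for Trav6-3 to Trav6-5. The family's log2 odds of a 3′ join over other Trav were 0.70 and 0.73 in EACBE-/-, against 0.56 and 0.56 in EACBE+/+. In both genotypes 3′ joins thus made up a larger share of the family's counts than of other Trav counts. The difference of 0.16 between genotypes is at the smallest p that the exact permutation test allows (0.333). Trav7-5 and Trav7-6 with their copies had 3′ joins in 13.1% and 17.0% in EACBE-/-, against 22.4% and 30.2% in EACBE+/+. The other comparison groups lay closer to the family. Trav9-2 to Trav9-4 with their copies had 18.7% and 22.1% in EACBE-/-, against 30.4% and 35.2% in EACBE+/+, and Trav6-3 to Trav6-5 with their copies had 18.5% and 21.1% in EACBE-/-, against 28.8% and 32.4% in EACBE+/+. The family's log2 odds of a 3′ join over Trav9-2 to Trav9-4 were 0.22 and 0.22 in EACBE-/- and 0.03 and 0.18 in EACBE+/+, and over Trav6-3 to Trav6-5 they were 0.24 and 0.31 in EACBE-/- and 0.15 and 0.36 in EACBE+/+.

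**Figure D3:**
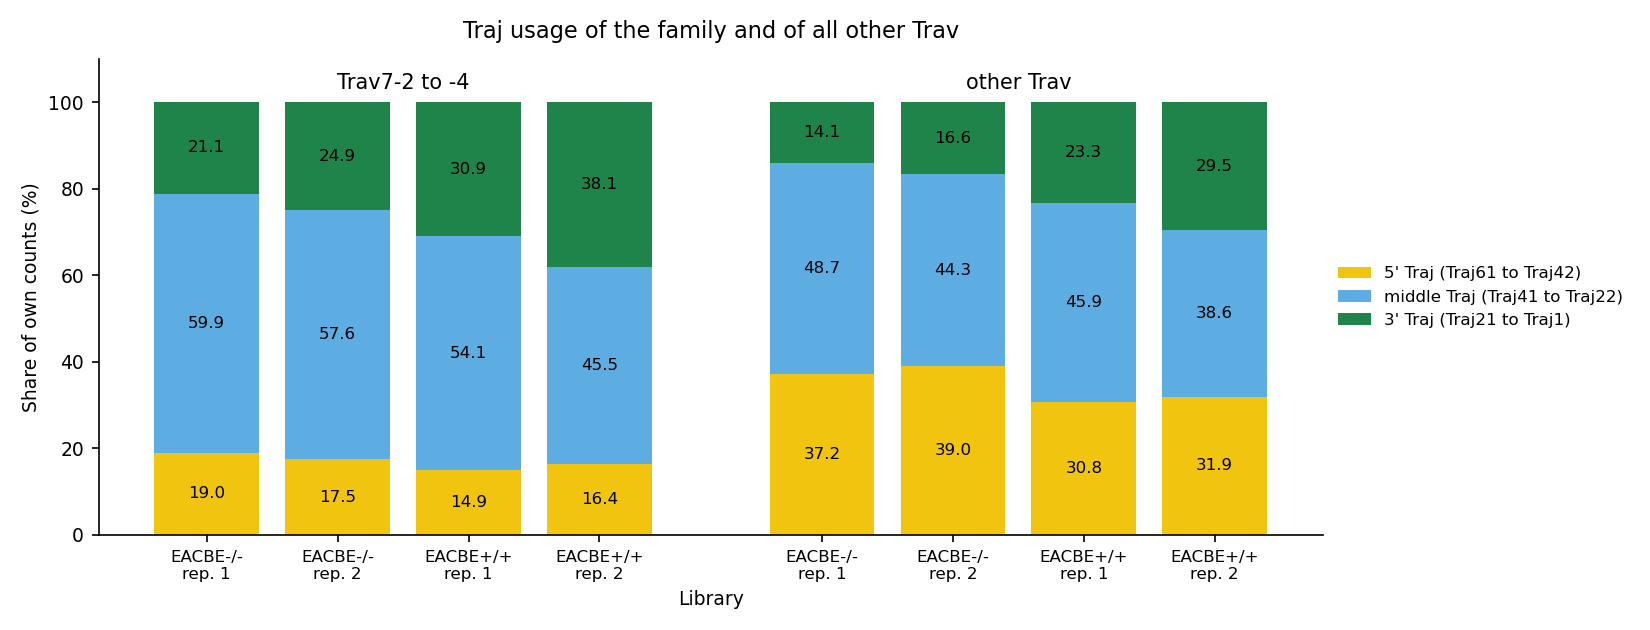
Share of counts (percent, vertical axis) that joined the 5′, middle and 3′ Traj regions in each library (horizontal axis, EACBE-/- libraries left of EACBE+/+ libraries), for the 7 segments on the left and for all other Trav on the right. The 3′ share is 21.1% and 24.9% in EACBE-/- and 30.9% and 38.1% in EACBE+/+ for the family, and the 5′ share of the family stays below 20% in all 4 libraries.

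Single Traj segments varied within the regions. The 5 partners with the highest mean share over the 4 libraries were Traj31 (5.74%), Traj23 (5.15%), Traj22 (4.68%), Traj37 (4.52%) and Traj26 (4.48%), all in the middle region. Traj31 took 6.02% and 6.31% of family counts in EACBE-/-, against 5.77% and 4.85% in EACBE+/+, and Traj23 took 5.86% and 5.77% in EACBE-/-, against 4.43% and 4.55% in EACBE+/+. Both were higher in each EACBE-/- library than in either EACBE+/+ library. The other 3 overlapped. Traj22 took 4.27% and 3.69% in EACBE-/-, against 6.80% and 3.95% in EACBE+/+, and was lower in EACBE-/- by mean. Traj37 took 5.03% and 4.07% in EACBE-/-, against 5.46% and 3.53% in EACBE+/+, and Traj26 took 4.65% and 4.13% in EACBE-/-, against 5.46% and 3.69% in EACBE+/+. At the 3′ end, Traj2 took 0 and 24 family counts in EACBE-/- (0.237% in replicate 2), against 5 and 268 in EACBE+/+ (0.515% and 1.90%). Traj4 took 0.609% and 0.781% in EACBE-/-, against 1.24% and 3.59% in EACBE+/+, and Traj6 took 0.685% and 1.18% in EACBE-/-, against 1.96% and 3.00% in EACBE+/+. At the 5′ end, Traj58 took 0 and 6 family counts in EACBE-/-, against 1 and 35 in EACBE+/+, and averaged over libraries its share of family counts was 0.0427 times its share of other Trav counts.

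Over all 43 Traj segments, 13 had both EACBE-/- libraries below both EACBE+/+ libraries in the family, where 27.9% did in other Trav, and 15 had the opposite order, where 41.9% did in other Trav. In the 3′ region it was 10 of 14 below in the family and 12 of 14 in other Trav, with 10 in common. In the middle region 10 of 16 lay above in the family and 8 of 16 in other Trav. In the 5′ region 3 lay below in the family (Traj58, Traj53 and Traj49) and 5 above, where in other Trav 0 lay below and 10 above. The difference between the family and other Trav in these counts was not tested. In all 4 libraries the family used 19 Traj segments more than other Trav did, all in the middle and 3′ regions, and 11 Traj segments less, all in the 5′ region.

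**Figure D4:**
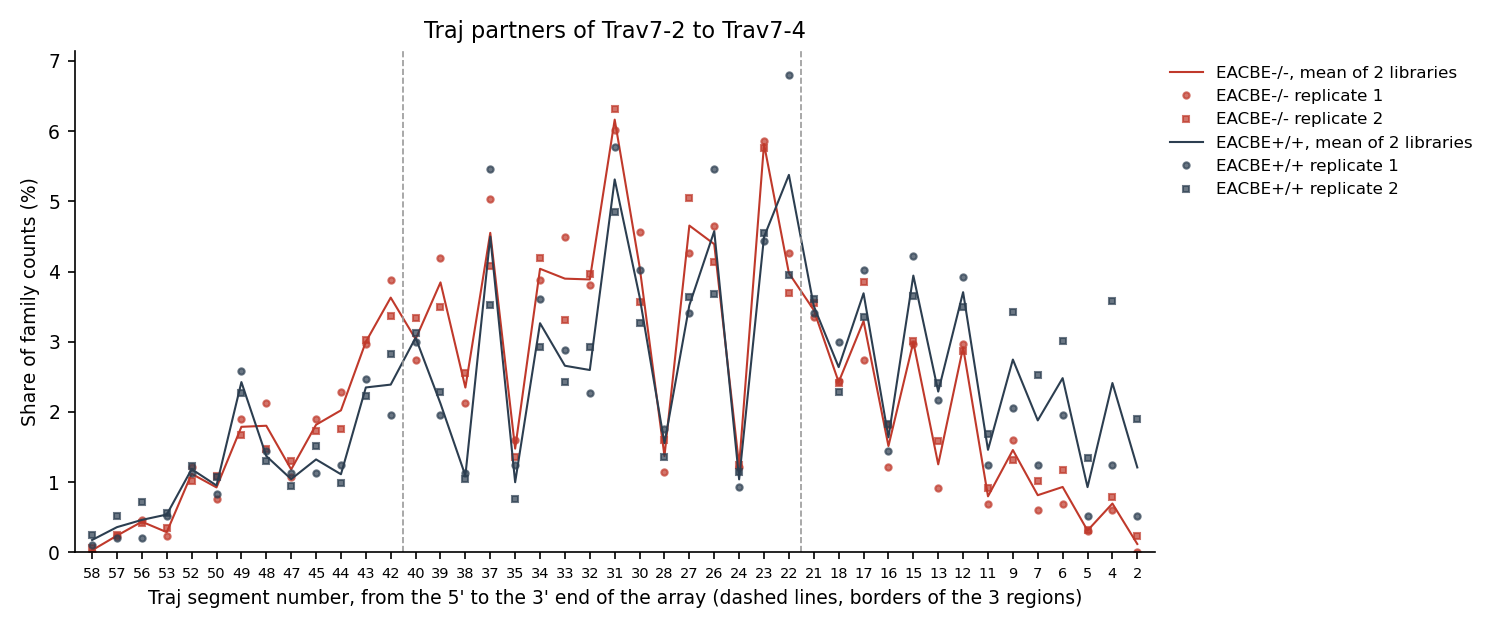
Share of the family's counts (percent, vertical axis) joined to each of the 43 listed Traj segments (horizontal axis, 5′ to 3′), with EACBE-/- in red and EACBE+/+ in dark blue; lines are means of 2 libraries, and small circles and squares are replicates 1 and 2. The EACBE-/- line runs below the EACBE+/+ line over most 3′ segments, such as Traj4 at 0.609% and 0.781% against 1.24% and 3.59%, and above it at Traj23.

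The shift away from 3′ Traj segments was seen in most members, as in most Trav segments of the array. The 3′ share of a segment's own counts was lower in both EACBE-/- libraries for 6 of the 7, where 67.0% of all Trav segments had that order, and Trav7d-2 was the exception. For Trav7n-4 it was 30.6% and 27.9% in EACBE-/-, against 45.7% and 49.7% in EACBE+/+. For Trav7d-4 it was 15.6% and 21.4% in EACBE-/-, against 33.7% and 39.5% in EACBE+/+. Of the 7 members these 2 had the largest differences between genotype means, -18.4 and -18.1 percentage points. For Trav7-4 it was 22.8% and 25.4% in EACBE-/-, against 26.1% and 33.6% in EACBE+/+. The middle share was higher in both EACBE-/- libraries for 3 of the 7 (Trav7d-3, Trav7d-4 and Trav7n-4), where 50.0% of all Trav segments had that order, and reached 62.5% and 58.6% in EACBE-/- for Trav7d-4, against 45.6% and 39.2% in EACBE+/+. The 5′ share was higher in both for 2 of the 7 (Trav7-2 and Trav7-3), where 45.3% of all Trav segments had that order.

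**Figure D5:**
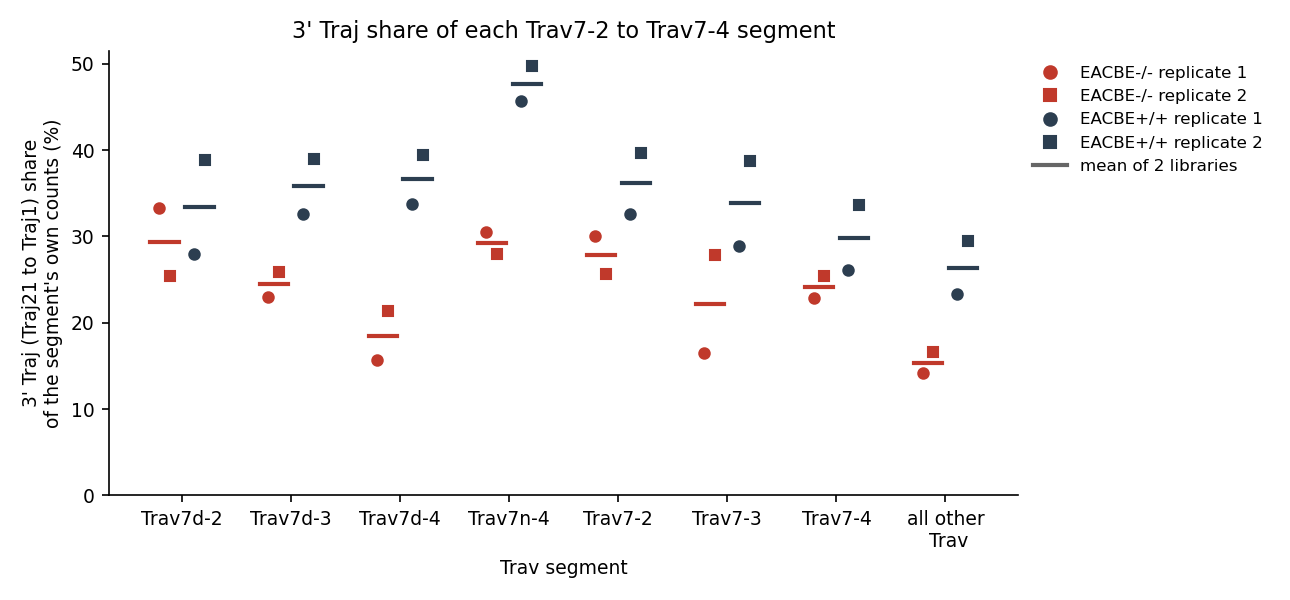
Share of each segment's own counts joined to the 3′ Traj region, Traj21 to Traj1 (percent, vertical axis), for the 7 segments and all other Trav (horizontal axis), with EACBE-/- in red on the left and EACBE+/+ in dark blue on the right of each pair; circles are replicate 1, squares are replicate 2 and lines are means of 2 libraries. Trav7n-4 has the highest EACBE+/+ values of the segments plotted, 45.7% and 49.7%, against 30.6% and 27.9% in EACBE-/-.

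Measured against the table total, 2 of the 21 classes made by 7 segments and 3 Traj regions passed in edgeR, where 4.53% of all 309 tested classes did, and all of those were lower in EACBE-/-. Joins of Trav7-2 to the 3′ region had 40 and 270 counts in EACBE-/-, against 74 and 1374 in EACBE+/+, and fell by 2.01 on the log2 scale (SE 0.358, edgeR adjusted p = 0.0414). Joins of Trav7-3 to the 3′ region had 14 and 108 counts in EACBE-/-, against 37 and 646 in EACBE+/+, and fell by 2.39 (SE 0.411, edgeR adjusted p = 0.0397). Without either EACBE-/- library these calls were lost, at adjusted p from 0.0863 to 0.140, with the sizes at -2.45 to -1.83. The 3′ classes had a negative log2 change in 7 of 7 members, with a median of -1.18, and in 88 of 104 Trav segments tested, with a median of -0.77. The middle classes had a negative change in 4 of 7 members, with a median of -0.09. Over all Trav segments tested it was 41 of 106, with a median of 0.20. The 5′ classes had a negative change in 6 of 7 members, with a median of -0.67, and in 35 of 99 Trav segments tested, with a median of 0.22. In Trav7-2 the changes with the 5′ and middle regions were -1.28 and -1.49 and in Trav7-3 -1.11 and -1.55, with edgeR adjusted p from 0.0553 to 0.373, above the threshold. In Trav7d-4 they were 0.81 with the 5′ region, 1.28 with the middle and -0.24 with the 3′ region, with edgeR adjusted p from 0.238 to 0.813. Leaving out 1 library moved the middle change between 0.73 and 2.01, and it passed without EACBE+/+ replicate 1 (edgeR adjusted p = 0.0207), and the 5′ change between 0.26 and 1.35.

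At the level of single V-J pairs, 297 of the 301 possible pairs of the family had a count, and 184 passed the filter on low counts and were tested among 2417 pairs in all. Of these 184, 6 were lower in EACBE-/- at an adjusted p under 0.05 in edgeR, where 2.98% of all pairs tested were, and 3 were higher, where 0.372% of all pairs tested were. The lower ones were Trav7-2 with Traj4, Traj6, Traj9 and Traj22 and Trav7-3 with Traj6 and Traj13. The higher ones were Trav7d-4 with Traj27, Traj32 and Traj38. Trav7d-2 had 0 pairs that passed the filter. A pair could pass the filter through the genotype in which it was high, so no count of directions over the tested pairs is given. The called pairs have the same limit. Their counts by direction therefore stand only beside the percentages of all pairs, and they are not read as a result about the family.

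The called pairs rest on few counts. Trav7-2 with Traj6 had 0 and 9 counts in EACBE-/- replicates 1 and 2, against 5 and 110 in EACBE+/+ replicates 1 and 2 (log2 change -3.64, SE 0.736, edgeR adjusted p = 0.00250). Trav7-2 with Traj4 had 1 and 8 counts in EACBE-/-, against 4 and 111 in EACBE+/+ (log2 change -3.47, SE 0.724, edgeR adjusted p = 0.00339). In both, replicate 1 has 5 counts or fewer in each genotype. Trav7-2 with Traj9 had 3 and 22 counts in EACBE-/-, against 7 and 128 in EACBE+/+ (log2 change -2.34, edgeR adjusted p = 0.0328). Trav7-3 with Traj13 had 0 and 5 counts in EACBE-/-, against 3 and 47 in EACBE+/+ (log2 change -3.34, edgeR adjusted p = 0.0429), and with Traj6 it had 0 and 8 counts in EACBE-/-, against 2 and 66 in EACBE+/+ (log2 change -2.98, edgeR adjusted p = 0.0484). Trav7d-4 with Traj38, in the middle of the Traj array, was higher, with 12 and 72 counts in EACBE-/-, against 1 and 11 in EACBE+/+ (log2 change 2.89, SE 0.723, edgeR adjusted p = 0.0194). Without EACBE-/- replicate 2 or EACBE+/+ replicate 2, edgeR called 0 of the 184 pairs, with 34 and 24 at an unadjusted p under 0.05. DESeq2 called 0 as well, with 27 at an unadjusted p under 0.05 and 31 pairs without an adjusted p.

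Members also differed in how closely their Traj profiles matched each other. Between members, Pearson's r over 43 Traj segments, averaged over the 4 libraries, ran from 0.551 (Trav7d-2 with Trav7n-4) to 0.927 (Trav7-2 with Trav7-4). These points share library and depth, and Trav7d-2 has the fewest counts. Of 32 other Trav numbers with copies summed and at least 50 counts in each library, those most like the family's summed profile were Trav3-3 (r = 0.933), Trav8-1 (r = 0.919) and Trav6-5 (r = 0.862). Trav3-3 held 3.35% and 3.73% of all counts in EACBE-/-, against 6.71% and 6.20% in EACBE+/+. Trav8-1 held 2.06% and 1.67% in EACBE-/-, against 1.54% and 1.50% in EACBE+/+, with both EACBE-/- libraries higher.

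The segments also appear in the T cell receptor delta (Trd) tables made from libraries of the same 2 genotypes. Replicate 2 of EACBE-/- listed all 7 and replicate 2 of EACBE+/+ listed 3, and replicate 1 of each genotype listed none of them. They had 10 counts of 47158 in EACBE-/- replicate 2, or 0.0212% (95% Wilson interval 0.0115% to 0.0390%), against 3 of 28093 in EACBE+/+ replicate 2, or 0.0107% (0.00363% to 0.0314%). Trav7-2 gave 7 of the 10 counts in EACBE-/- and all 3 in EACBE+/+, and all 13 were joined to Trdj1. The intervals overlap and cover counting error only.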

How the data were processed

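Of 40 samples in the series, 4 Tcra and 4 Trd repertoire libraries were used and 32 were not used here. Each library was deposited by the authors as whole-number counts, in a table of V against J segments. The sources used here do not state how segments were assigned, nor whether counts are of reads or of distinct receptors. If counts are reads, abundant transcripts weigh more, and amplification adds spread. Per the submitters' processing notes, mm10 and, among other tools of unstated role, cutadapt 0.4.4 and bedtools 2.26.0 were used in the series.

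All 106 Trav symbols were matched to RefSeq (GRCm38.p6). Counts were summed per Trav segment, per Trav segment and Traj region, and per pair, and tested with edgeR 4.0.16 in R 4.3.3 (glmQLFit, glmQLFTest), with the table totals taken as library sizes and without TMM factors, filterByExpr at 10 and 15, Benjamini-Hochberg adjustment over all features of a fit and a threshold of 0.05. Standard errors are the log2 change divided by the square root of F. The script was tested on counts simulated for independent libraries with a fixed spread, which need not match the spread of these libraries. Intervals are 95% Wilson intervals and cover counting error only. Summed shares were compared by exact permutation.

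All 7 members were named, with up to 6 called and non-overlapping pairs of largest change, the 5 top Traj partners, the 3 most similar Trav numbers, 3 comparison groups and the nearest listed neighbours; the other 3 called pairs and the Traj segments named beside the top 5 were chosen after their values were seen, as were the ratios of D to original copies. The members and lists were chosen with earlier results of these data known. The alternatives tried were DESeq2 1.42.0, TMM factors, no filter, other Traj bounds, copies summed, totals over segments listed in all libraries, a block for the replicate number, each pair counted once, and fits that leave out 1 library.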

Additional observations from a re-analysis of the deposited data

How the results depend on the processing

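The family's share of all counts, its 3′ Traj share and its log2 odds of a 3′ join kept their direction under every alternative run on them. Its 5′ Traj share, 2.59 points higher in EACBE-/-, turned to -0.70 points with the bound at Traj47. Called Trav segments numbered 6, with 1 of the 7 members among them; leaving out 1 library gave 2 to 4 and 0 to 2 members (the 0 without either EACBE-/- library, where 2 members had an unadjusted p under 0.05 in edgeR), DESeq2 gave 2 members, and copies summed gave 12 of 47. Called classes of Trav segment and Traj region numbered 14, with 2 of the members'; leaving out 1 library gave 8 to 22 and 0 to 3 (0 without either EACBE-/- library, where 5 and 4 had an unadjusted p under 0.05 in edgeR), and a split of the Traj array into 2 regions gave 7. Called pairs numbered 81, with 9 of the members'; DESeq2 gave 19 and 0, no filter gave 129 in all, and leaving out 1 library gave 0 to 89 and 0 to 13.

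With the replicate number as a block, 49 of 106 Trav segments, 156 of 309 classes and 716 of 2417 pairs were called. Of the members' own it was 4 of 7 segments, 14 of 21 classes and 89 of 184 pairs. Those 4 members were Trav7d-2 (-1.15, adjusted p = 0.0175), Trav7-2 (-1.63, adjusted p = 1.84e-05) and Trav7-3 (-1.79, adjusted p = 0.000133), lower in EACBE-/-, and Trav7d-4 (0.80, SE 0.140, adjusted p = 0.00127), higher in EACBE-/-, all in edgeR. The numbers are not stated to pair the libraries. Deviations of same-numbered libraries from the genotype means correlated at r = 0.740 over 106 Trav segments. With 2 libraries per genotype, the deviations of replicate 2 mirror those of replicate 1, so the 2 pairs give only 1 comparison. Replicate 2 was far deeper in both genotypes, and the part of depth in this was not tested.

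Among single members, leaving out 1 library moved the log2 change of Trav7d-3 between -0.64 and 0.24 (positive without EACBE+/+ replicate 1), that of Trav7n-4 between -0.77 and 0.042 (positive without EACBE+/+ replicate 2), and that of Trav7d-4 with the 3′ region between -0.63 and 0.21 (positive without EACBE+/+ replicate 1). With copies summed Trav7-4 turned to 0.073. None of these 4 was called in edgeR. For these reversals the cause was not tested. The smaller tables, of 19085 and 10694 counts, limit what single pairs can show.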
